A study of Mus musculus with 24 samples.

Results

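Endoplasmic reticulum (ER) chaperones fold and check the proteins that a cell sends to its membrane or secretes, and 10 of their genes were followed here in cultured mouse oligodendrocytes kept with or without ethanol. The genes were Hspa5, Hsp90b1, Calr, Canx, Pdia3, Pdia4, Pdia6, Dnajb9, Sdf2l1 and Manf. They were taken by symbol from a table of 55359 genes, in which each Ensembl identifier was matched to its mouse symbol, and all 10 were found and passed the filter on low counts in every comparison. Oligodendrocytes had been isolated from the cortices of C57BL/6J pups on postnatal days 5 to 7, through a magnetic sort for O4, an antigen on the surface of immature oligodendrocytes. They were differentiated for 3 days, mainly with triiodothyronine (T3, a thyroid hormone), and then kept for 3 days at 0, 10 or 30 mM ethanol.

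Experiment 1 held 6 control wells and 6 wells at 30 mM, and experiment 2 held 6 control wells and 6 wells at 10 mM. The labels give the experiments as separate batches, so dose and experiment cannot be told apart. Control plates stood in an incubator of their own, so the incubator and the ethanol likewise cannot be told apart. The labels call the wells biological replicates and do not say whether they came from separate animals or cultures, so p-values measure the spread between these wells, which may be technical.

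Oligodendrocytes make very large amounts of membrane and myelin protein, much of which passes through the ER. Hspa5 encodes BiP, the Hsp70 chaperone of the ER, and Hsp90b1 encodes GRP94, its Hsp90 chaperone. Calr (calreticulin) and Canx (calnexin) bind sugar chains on new glycoproteins, and the protein disulfide isomerases Pdia3, Pdia4 and Pdia6 form and rearrange disulfide bonds. Dnajb9 (ERdj4) and Sdf2l1 work with BiP, and Manf encodes a small protein that binds BiP and can be secreted. When unfolded proteins build up in the ER, the sensors IRE1, PERK and ATF6 start the unfolded protein response, and the factors XBP1 and ATF6 raise transcription of chaperone genes through the ER stress response element (ERSE).

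Matches to that element are shown first, because several of the 10 genes share them. The element was first defined from promoters of ER chaperone genes, Hspa5, Hsp90b1 and Calr among them, so its share among the 10 is a description and is not independent of the choice of genes. RefSeq promoter windows of build GRCm38.p6, each running from 250 bases before to 50 bases after a gene's start, matched 9 of the 10 genes, and Manf had no entry. The element was searched as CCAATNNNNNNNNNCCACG on both strands. It was present in 5 of the 9 genes and in 37 of 27025 genes with a window (0.137%). All sequences below are on the gene's own strand, 5′ to 3′, with the outer parts of the match in capitals.
Hspa5, chr2:34771840-34772089 (+), the 250 bases before the start: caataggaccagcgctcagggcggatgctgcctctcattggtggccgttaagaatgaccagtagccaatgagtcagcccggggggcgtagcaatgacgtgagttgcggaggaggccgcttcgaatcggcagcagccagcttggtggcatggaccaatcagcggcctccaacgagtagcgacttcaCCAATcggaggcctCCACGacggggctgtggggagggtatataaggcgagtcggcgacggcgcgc
Hsp90b1, chr10:86705628-86705666 (-), the farther match: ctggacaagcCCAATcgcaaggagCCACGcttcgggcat
Hsp90b1, chr10:86705523-86705561 (-), the nearer match, read on the opposite strand: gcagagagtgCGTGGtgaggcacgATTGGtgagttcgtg
Calr, chr8:84847065-84847103 (-), read on the opposite strand: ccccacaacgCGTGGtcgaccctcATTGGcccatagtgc
Canx, chr11:50325790-50325828 (-): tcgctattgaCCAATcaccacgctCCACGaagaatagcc
Pdia6, chr12:17266481-17266519 (+): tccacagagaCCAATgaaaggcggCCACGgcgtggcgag
Pdia3, chr2:121413863-121413901 (+), 1 base of CCACG changed: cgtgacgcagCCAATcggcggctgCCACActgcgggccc
Pdia4, chr6:47813592-47813630 (-), 1 base of CCACG changed, read on the opposite strand: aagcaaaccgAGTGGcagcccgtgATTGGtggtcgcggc

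The first base of the match lay 65 bases before the start in Hspa5, 212 and 107 in Hsp90b1, 162 in Calr, 145 in Canx and 98 in Pdia6. Matches with exactly 1 base of CCACG changed were present in Pdia3 (29 bases before the start), Pdia4 (108) and Hsp90b1 (172), against 1.02% of all genes. Dnajb9 and Sdf2l1 had neither form. The related elements ERSE-II (ATTGGNCCACG, present in 0.0444% of genes) and UPRE (TGACGTGG, 0.714%) were in 0 of the 9 windows, with both strands searched. The CCAAT letters alone, which ERSE contains, were in all 9 windows and in 41.1% of genes. These are matches of letters in 1 window per start site and say nothing of which factor bound there.

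The assay was 3′ tag sequencing, which reads each transcript near its 3′ end, and its counts therefore do not grow with transcript length. The total count per well ran from 1184609 to 1817028. Each of the 10 genes had between 31 and 1967 counts in a well, with Dnajb9 at the low end and Calr at the high end. Levels are given as CPM, counts scaled to the normalised library size. A floor of 3 counts corresponded to 2.12 CPM on average over the wells, a limit that covers counting error only. All 12 markers of myelinating oligodendrocytes were detected in every group, as the cell type label says, with group means of their sum from 7949 to 11082 CPM. The 9 astrocyte markers summed to group means of 4663 to 5912 CPM. In bulk wells, fewer cells of a type and less RNA per cell cannot be told apart.

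Calr was the most abundant of the 10 in all 4 groups, and its wells did not overlap those of the next gene, Hsp90b1, in any of them. Hsp90b1, Hspa5 and Canx followed. In both groups of experiment 1 the wells of neighbouring genes among these 3 overlapped, and in experiment 2 they did so only for Canx and Hspa5 in the controls. Pdia6, Pdia4, Pdia3 and Manf formed a middle level between 123 and 251 CPM in group means. Dnajb9 and Sdf2l1 lay lowest. In experiment 1 their wells overlapped, with group means of 47.2 to 53.0 CPM, and in experiment 2 every Sdf2l1 well was above every Dnajb9 well of its group. The summed level of all 10 genes was 3798 ± 245 CPM (SD, n = 6) in the controls of experiment 1, 3723 ± 253 (SD, n = 6) at 30 mM, 3344 ± 107 (SD, n = 6) in the controls of experiment 2 and 3902 ± 156 (SD, n = 6) at 10 mM.

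**Figure D1:**
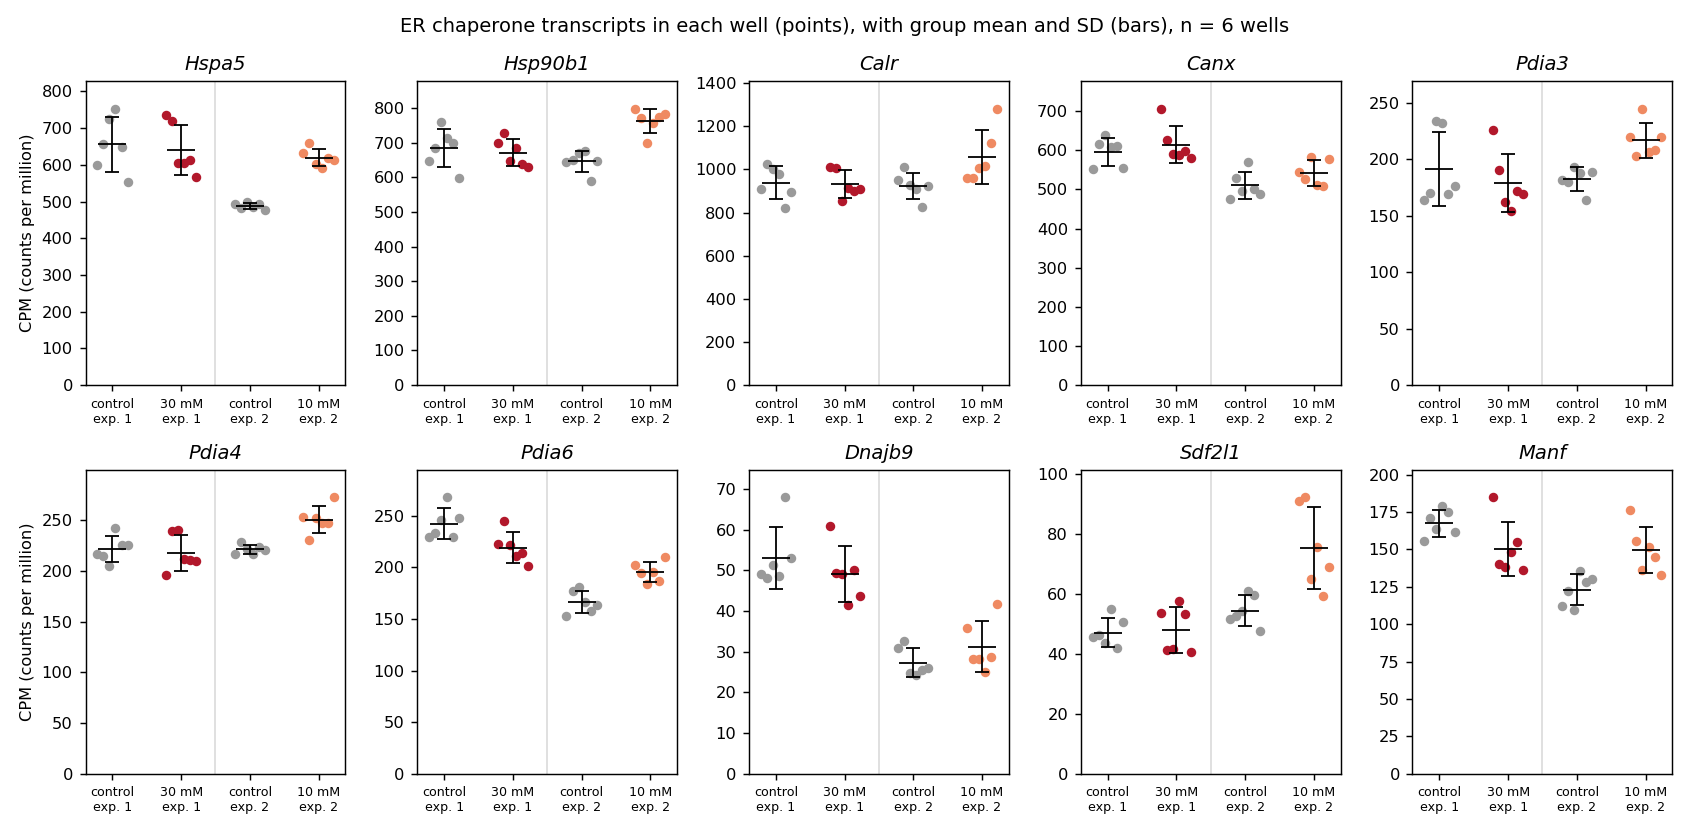
Level of each of the 10 genes in CPM (y axis, starting at 0) in every well of the 4 groups (x axis). Points are wells, bars are group means with SD (n = 6), and at 10 mM all Hspa5 wells (591 to 659 CPM) lie above all controls of experiment 2 (477 to 500 CPM).

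The first comparison asked how 10 mM ethanol changed these transcripts against the controls of its own experiment. Hspa5, Hsp90b1 and Sdf2l1 were higher at 10 mM by edgeR's quasi-likelihood test, with Benjamini-Hochberg adjustment over all genes and a threshold of 0.05. These were 3 of the 10 genes, against 0.391% of 13538 genes called higher and 0.657% called in either direction. All 10 estimates were above 0, as were 49.3% of all genes tested and most genes of several related lists given below. The median log2 fold change of the 10 was 0.23 against -0.0023 over all genes. In 5 of the 10 genes (Hspa5, Hsp90b1, Pdia3, Pdia4 and Pdia6) every ethanol well was above every control well, against 0.532% of all genes.

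Hspa5 ran from 477 through a median of 489 to 500 CPM in the controls and from 591 through 616 to 659 CPM at 10 mM. The control wells were tightly grouped, and the lowest ethanol well stood well clear of them. BiP transcript was 25.6% higher (log2 fold change 0.33, SE 0.0514, adjusted p = 3.97e-05), and its call held in all 12 fits that left out 1 well. Hsp90b1 ran from 590 through 648 to 676 CPM in the controls and from 699 through 772 to 798 CPM at 10 mM. GRP94 transcript was thus above its controls in 6 of 6 wells, with a narrow gap between the groups. The change was 17.2% (log2 fold change 0.23, SE 0.0511, adjusted p = 0.0117). The adjusted p was 0.0656 without control replicate 5, the lowest control well, and 0.0560 in a joint fit of all 24 wells.

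Sdf2l1, which acts with BiP and its J proteins, ran from 47.7 through 53.5 to 61.2 CPM in the controls and from 59.3 through 72.3 to 92.3 CPM at 10 mM. Ethanol replicates 1 and 2 were far above the rest, and replicate 5 lay within the control range. Its change was the largest of the 10, at 36.6% (log2 fold change 0.45, SE 0.0987, adjusted p = 0.00963). Without ethanol replicate 2 the adjusted p was 0.0599, at a log2 fold change of 0.40. Dnajb9, a J protein that stimulates BiP, ran from 24.3 through 25.7 to 32.6 CPM in the controls and from 25.0 through 28.4 to 41.7 CPM at 10 mM. Its groups overlapped widely and it was not called, with a 95% interval of the log2 fold change from -0.10 to 0.44 (adjusted p = 0.721).

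The disulfide isomerases were above their controls in every ethanol well and yet did not pass the adjusted threshold. Pdia3, the isomerase that works with calreticulin and calnexin, ran from 164 through 185 to 194 CPM in the controls and from 203 through 214 to 245 CPM at 10 mM (log2 fold change 0.24, SE 0.0638, adjusted p = 0.0565). DESeq2 gave it an adjusted p of 0.0476. Pdia6, which also binds the sensor IRE1, ran from 153 through 165 to 181 CPM in the controls and from 184 through 195 to 210 CPM at 10 mM (log2 fold change 0.22, SE 0.0645, adjusted p = 0.0886). Its groups came within a few CPM of each other without overlapping. Pdia4 ran from 216 through 221 to 228 CPM in the controls and from 230 through 250 to 272 CPM at 10 mM (log2 fold change 0.17, SE 0.0593, adjusted p = 0.215). For each of these 3 genes an exact two-sided permutation test of log2 CPM gave 0.00216, unadjusted, the smallest p that 6 wells against 6 can give. The full separation of the wells fixes that value, so the test adds nothing to the separation.

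Manf and the lectin chaperones overlapped their controls. Manf ran from 110 through 125 to 136 CPM in the controls and from 133 through 148 to 176 CPM at 10 mM, with 5 of 6 ethanol wells above every control (log2 fold change 0.27, SE 0.0737, adjusted p = 0.0603). It passed the threshold without ethanol replicate 3 (adjusted p = 0.0486), without ethanol replicate 6 (0.0168) and with the log2 total count as a covariate (0.0363). Calr ran from 827 through 925 to 1010 CPM in the controls and from 958 through 1012 to 1282 CPM at 10 mM. Only ethanol replicates 5 and 6 stood far above the controls, and the gene was not called (log2 fold change 0.18, SE 0.0550, adjusted p = 0.108), although it passed without ethanol replicate 1 (adjusted p = 0.0476). Canx ran from 475 through 498 to 569 CPM in the controls and from 510 through 536 to 583 CPM at 10 mM. It had the smallest estimate of the 10, with a 95% interval of the log2 fold change from -0.03 to 0.18 (adjusted p = 0.677).

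Values of other cell types and of library composition at 10 mM were as follows, and their part in these results was not tested. The summed level of 12 myelinating oligodendrocyte markers ran from 6981 to 8928 CPM in the controls and from 8476 to 9394 CPM at 10 mM, with 3 of 12 markers called higher. For 14 microglia markers the sums ran from 3045 to 3619 CPM in the controls and from 3270 to 3887 CPM at 10 mM, with 2 of 12 tested markers called higher. Mural and fibroblast markers summed to 605 to 795 CPM in the controls and 611 to 681 CPM at 10 mM, with 2 of 10 tested markers called lower. The 9 astrocyte markers summed to 4644 to 4935 CPM in the controls and 4680 to 5392 CPM at 10 mM, with 0 called. Of all genes 0.657% were called at 10 mM in either direction. Mitochondrial genes took 2.23% ± 0.110 (SD, n = 6) of counts in the controls and 2.05% ± 0.216 (SD, n = 6) at 10 mM.

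The second comparison set 30 mM ethanol against the controls of experiment 1. By edgeR's quasi-likelihood test 0 of the 10 genes were called. Of 13235 genes tested 9.67% were called, so that 0 of 10 is near the share of all genes. DESeq2 and limma voom also called 0, and 1 of the 10, Pdia6, had an unadjusted p under 0.05. The estimates ran from -0.15 for Manf to 0.05 for Canx on the log2 scale, with a median of -0.02 against 0.02 over all genes, and 2 of 10 were above 0. With upper quartile normalisation 6 of 10 were above 0 and the median was 0.01, against 0.06 over all genes. The groups overlapped for all 10 genes. Of all genes 4.1% had every ethanol well above, or every ethanol well below, all controls, so the overlap was the common case.

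Hspa5 ran from 552 through 654 to 753 CPM in the controls of experiment 1 and from 566 through 610 to 735 CPM at 30 mM. The ranges of the 2 groups nearly coincided, and the 95% interval of its log2 fold change was -0.16 to 0.11, which lies below the whole interval measured at 10 mM (0.23 to 0.43). Hsp90b1 ran from 599 through 692 to 761 CPM in the controls and from 629 through 667 to 729 CPM at 30 mM, with an interval of -0.14 to 0.10. The Sdf2l1 wells lay between 42.0 and 54.9 CPM in the controls and between 40.5 and 57.6 CPM at 30 mM, and its interval of -0.19 to 0.27 was the widest of the 10. Of the other intervals that spanned 0, Calr lay at -0.12 to 0.12, Canx at -0.07 to 0.17, Pdia3 at -0.26 to 0.09, Pdia4 at -0.16 to 0.12 and Dnajb9 at -0.32 to 0.14.

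Pdia6 and Manf had the lowest estimates at 30 mM. Pdia6 ran from 229 through 240 to 268 CPM in the controls and from 201 through 218 to 245 CPM with ethanol, where 5 of 6 wells lay below every control (log2 fold change -0.14, SE 0.0665, adjusted p = 0.195). Manf ran from 155 through 167 to 179 CPM in the controls and from 136 through 144 to 185 CPM with ethanol. Replicate 1 was the only Manf well at 30 mM that exceeded the controls, and the other 5 wells lay below all of them (log2 fold change -0.15, SE 0.0760, 95% interval -0.30 to 0.01, adjusted p = 0.240). Without that well Manf passed the threshold, at a log2 fold change of -0.22 (adjusted p = 0.0471).

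Wells at 30 mM differed from their controls more than wells at 10 mM did in the oligodendrocyte, astrocyte, and mural and fibroblast markers. The mitochondrial share did so too, and the microglia markers did not. The part of these values in the chaperone results was not tested. Myelinating oligodendrocyte markers summed to 7563 to 9307 CPM in the controls and 9733 to 16693 CPM at 30 mM, with 8 of 12 called higher, and replicate 1 was the highest. Astrocyte markers, from cells that O4 sorting should leave behind, summed to 3933 to 4988 CPM in the controls and 5551 to 6844 CPM at 30 mM, with 6 of 9 called higher. Mural and fibroblast markers summed to 864 to 1203 CPM in the controls and 426 to 506 CPM at 30 mM, with 7 of 11 tested markers called lower. Microglia markers summed to 241 to 411 CPM in the controls and 241 to 395 CPM at 30 mM, with 1 of 8 tested markers called higher. Of all genes 9.67% were called at 30 mM in either direction. Mitochondrial genes took 3.32% ± 0.327 (SD, n = 6) of counts in the controls and 4.09% ± 0.426 (SD, n = 6) at 30 mM.

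**Figure D2:**
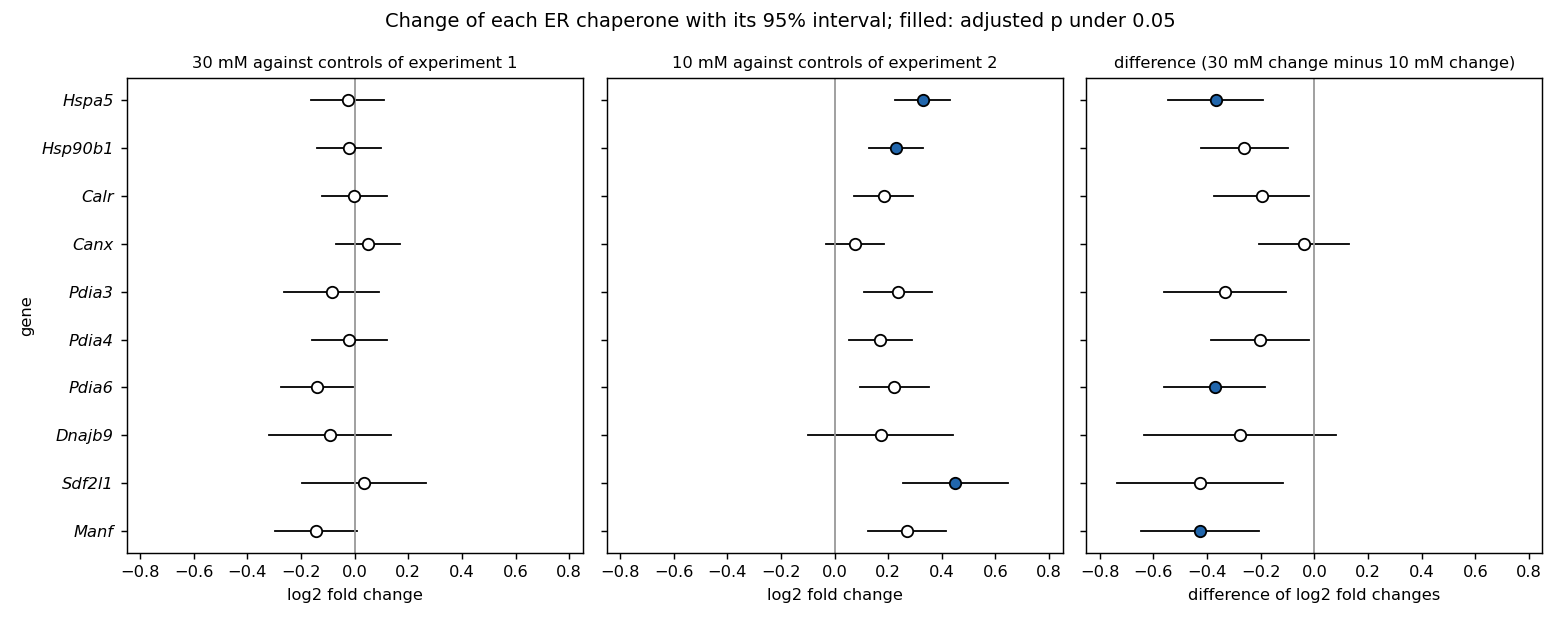
Log2 fold change (x axis) of each of the 10 genes (y axis) at 30 mM, at 10 mM, and the change at 30 mM minus the change at 10 mM, with 95% intervals. Filled points have an adjusted p under 0.05, which applies to 0 genes at 30 mM, to Hspa5, Hsp90b1 and Sdf2l1 at 10 mM and to Hspa5, Pdia6 and Manf for the difference.

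The difference between both changes was tested directly, as an interaction over all 24 wells. Hspa5, Pdia6 and Manf had a lower change at 30 mM than at 10 mM, which is 3 of the 10 genes, against 2.4% of 14655 genes called in that direction and 3.28% called in either. For Hspa5 the difference was -0.37 (SE 0.0889, adjusted p = 0.00871). Pdia6 had the same size of difference, -0.37 (SE 0.0943, adjusted p = 0.0125), and was called at neither dose alone. Manf had -0.43 (SE 0.110, adjusted p = 0.0143), and it too was called at neither dose. All 10 estimates were below 0, as were 47.6% of all genes and most genes of several related lists given below. The median was -0.31 against 0.02 over all genes. With upper quartile normalisation 9 of 10 would be below 0, Canx being the exception, and the median would be -0.23 against 0.09 over all genes.

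Hsp90b1 and Sdf2l1, which were higher at 10 mM, did not pass this test. The difference was -0.26 for Hsp90b1 (95% interval -0.42 to -0.10, adjusted p = 0.0563) and -0.43 for Sdf2l1 (-0.73 to -0.12, adjusted p = 0.114). Hsp90b1 passed with DESeq2 (adjusted p = 0.00909) and with limma voom (0.0302). It also passed when 1 of 4 wells was left out, which were control replicate 6 of experiment 1 (0.0150), 10 mM replicate 3 (0.0312), 30 mM replicate 1 (0.0262) and 30 mM replicate 2 (0.0199). Pdia3, at -0.33 (95% interval -0.56 to -0.11, adjusted p = 0.0870), passed without 30 mM replicate 1 (0.00906), so that 5 of the 10 genes were called without that well.

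Library depth moved with the chaperones in experiment 1. The mean of the 10 genes, centred within each group, correlated with the log2 total count at r = 0.85 over the 12 wells of experiment 1 and at r = -0.20 over the 12 wells of experiment 2, where the points share the scaling of their libraries. At 30 mM, replicates 1 and 2 had the largest total counts (1688867 and 1610397) and the highest summed chaperone level (4095 and 3988 CPM). The other 4 wells had 1218861 to 1358062 counts and 3484 to 3618 CPM. With the log2 total count as a covariate the difference for Hspa5 was -0.29 (adjusted p = 0.0553), so that its call was lost, while Pdia6 and Manf were still called. The Hspa5 change at 10 mM was called with that covariate too.

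**Figure D3:**
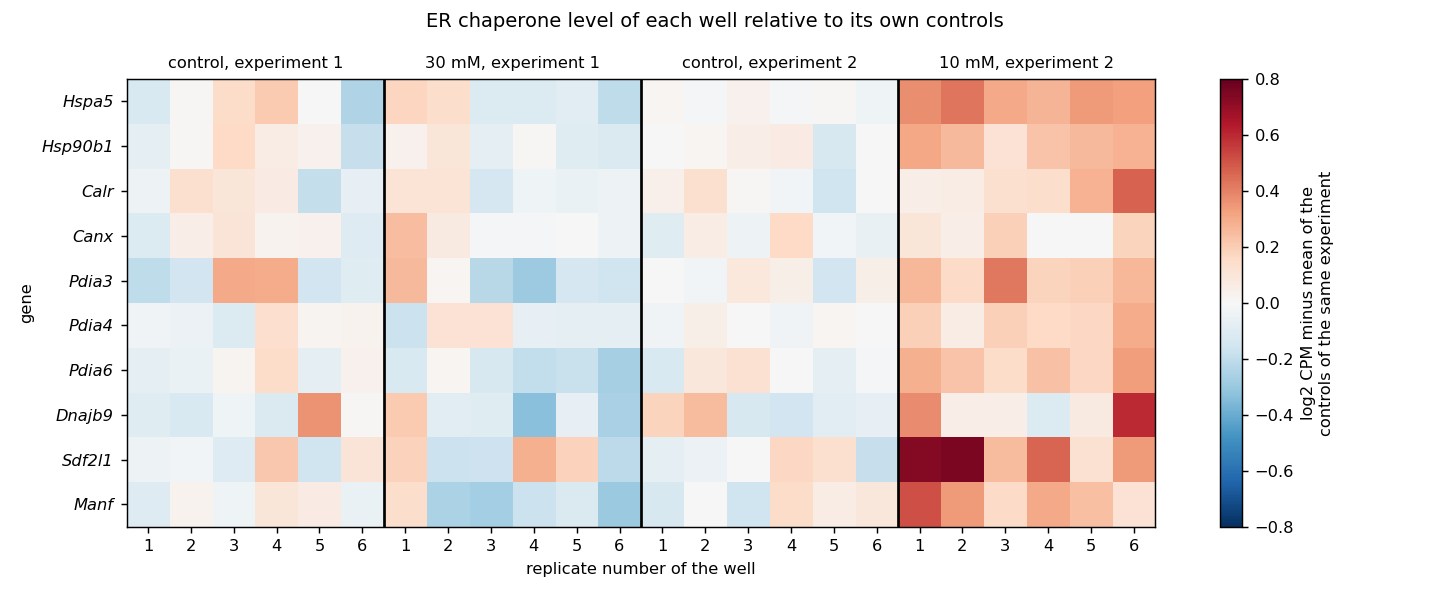
Log2 CPM of each of the 10 genes (rows) in each of the 24 wells (columns, with replicate numbers), minus the mean of the control wells of the same experiment. Wells at 10 mM are above their controls (red) for nearly all genes, with a mean over the 10 genes between 0.18 and 0.32, whereas the wells at 30 mM range from -0.17 to 0.11.

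Taken well by well, the mean of the 10 genes was above the control mean in 6 of 6 wells at 10 mM, by 0.18 to 0.32 on the log2 scale. In 5 of those wells all 10 genes were above their control mean, and in replicate 4 it was 9 of 10. At 30 mM replicate 1 had 8 genes above the control mean and replicate 2 had 7, while the other 4 wells had 0 to 2. The heatmap shows this split within the group.

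Control levels of 5 of the 10 chaperones differed between the experiments, a share near that of all genes. Hspa5, Canx, Pdia6, Dnajb9 and Manf were higher in the controls of experiment 1 than in those of experiment 2, and the other 5 were not called. Of all 13479 genes tested, 43.6% were called in either direction and 21.3% in that direction. The log2 fold change was 0.40 for Hspa5 (SE 0.0575, adjusted p = 1.21e-08), 0.20 for Canx (SE 0.0556, adjusted p = 0.00209) and 0.52 for Pdia6 (SE 0.0649, adjusted p = 1.59e-10). Dnajb9 had the largest, 0.92 (SE 0.122, adjusted p = 9.85e-10), and Manf had 0.42 (SE 0.0712, adjusted p = 7.06e-07). For 4 genes (all of these but Canx) every control well of experiment 1 was above every control well of experiment 2, against 10.9% of all genes. Hspa5, Pdia6 and Manf, called for the difference between the doses, were among these 4, and Dnajb9 had no such call. With ethanol, group means at 30 and 10 mM were 641 and 620 CPM for Hspa5, 219 and 196 for Pdia6 and 150 and 150 for Manf. The part of the control levels in the called differences was not tested.

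Hsp90b1, Calr, Pdia3 and Pdia4 had control differences between -0.02 and 0.06 on the log2 scale and were not called. Sdf2l1 went the other way, at -0.23 (SE 0.104, adjusted p = 0.0647). It passed the threshold with upper quartile normalisation (adjusted p = 0.0168), without control replicate 4 of experiment 1 (0.0408) and without control replicate 6 of experiment 2 (0.0458). The control wells of experiment 1 ran from 552 to 753 CPM for Hspa5, so that the 10 mM wells of experiment 2 (591 to 659 CPM) fell inside the range of untreated wells of the other experiment. For Pdia6 and Dnajb9 the 10 mM wells (up to 210 and 41.7 CPM) remained below the lowest control well of experiment 1 (229 and 48.2 CPM). Hsp90b1 at 10 mM had a group mean of 763 CPM against 684 CPM in the controls of experiment 1, and Sdf2l1 had 75.4 against 47.2 CPM.

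Microglia markers summed to 329 ± 71.7 CPM (SD, n = 6) in the controls of experiment 1 and 3296 ± 193 CPM (SD, n = 6) in those of experiment 2. Of these markers, 12 of 12 tested were called lower in experiment 1, against 43.6% of all genes called in either direction. The part of this difference in the chaperone levels of the controls was not tested. Endothelial markers summed to 51.1 to 90.8 CPM over all wells, and Cldn5, a defining endothelial gene, was at 0 in every well of 3 groups.

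Within groups, the 10 genes varied together only in part. After centring within each group, 36 of the 45 pairs had a positive correlation of log2 CPM over the 24 wells, with a median r of 0.25 and a range from -0.36 to 0.75. The highest was that of Hspa5 and Hsp90b1, the ER forms of Hsp70 and Hsp90. Hspa5 followed the mean of the other 9 genes most closely (r = 0.72), ahead of Canx (0.68), Hsp90b1 (0.60), Pdia6 (0.59) and Pdia3 (0.57). Sdf2l1 had 0.10 and Pdia4 had -0.04. The highest value of Sdf2l1 was with Manf (r = 0.60), and that of Pdia4 was with Pdia6 (r = 0.51). The pairs of Hspa5 differed between the experiments. With Hsp90b1 r was 0.88 in experiment 1 and 0.27 in experiment 2, with Canx 0.85 and -0.15, and with Pdia3 0.82 and -0.28. Among its pairs only that with Sdf2l1 was higher in experiment 2 (0.12 and 0.58). Wells share a library scaling and a depth across genes, so these values are descriptions, and the median over pairs was 0.32 in experiment 1 and 0.15 in experiment 2.

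**Figure D4:**
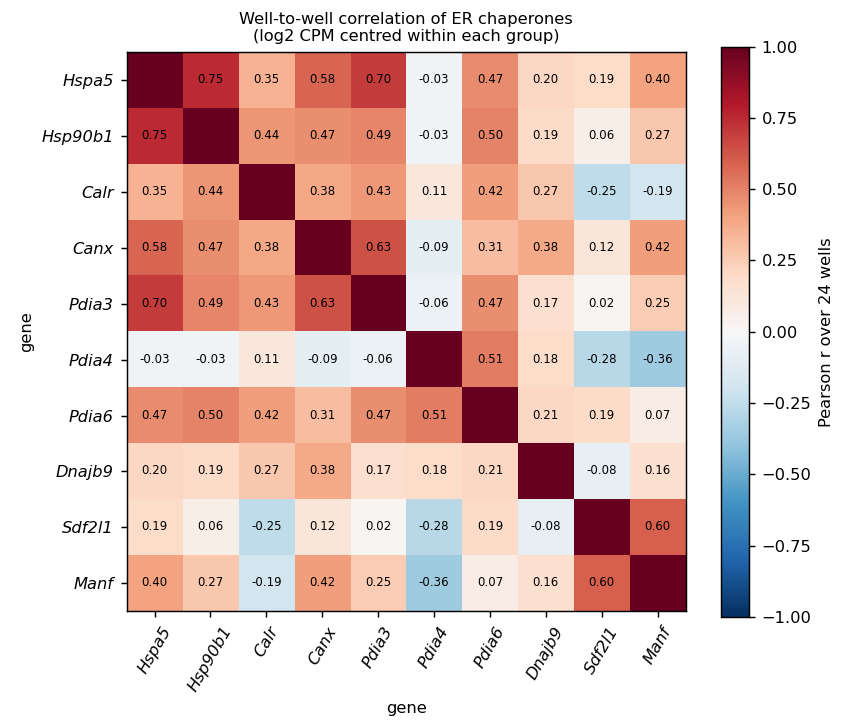
Pearson correlation between each pair of the 10 genes over 24 wells, from log2 CPM centred within each group of 6 (both axes are genes, colour and number are r). The highest value is 0.75 for Hspa5 and Hsp90b1, and Pdia4 is near or below 0 with most genes and at 0.51 with Pdia6.

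The genes whose level followed the mean of the 10 most closely were sought among 6396 genes with a mean log2 CPM of at least 5. The nearest was Hnrnpl (r = 0.90 over 24 wells), which encodes an RNA-binding protein, followed by Igfbp3 (0.84), Eif2s3x (0.83), Myl12a (0.82), Lman2 (0.81), Chst2 (0.81), Tmx1 (0.81), Eif4g2 (0.81), H3f3b (0.80) and Eif5a (0.80). Lman2 is a cargo lectin of the early secretory pathway and Tmx1 is a membrane-bound disulfide isomerase of the ER. Eif2s3x, Eif4g2 and Eif5a take part in translation. The median r over all 6396 genes was 0.23, and 4885 of them were positive, so that a positive value was the common case.

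Lists of related genes were read in the same fits. At 10 mM, edgeR's quasi-likelihood test called 0 of 205 tested genes from 10 lists around the ER and other chaperone systems. That is near the share of all genes, of which 0.657% were called. Of the 205 genes, 27 (13.2%, against 10.1% of all genes) had an unadjusted p under 0.05, and DESeq2 and limma voom each called 1. At 30 mM it called 5 higher and 19 lower of 207, and these 24 genes were 11.6% of those tested, near the 9.67% of all genes. In the test of the difference 12 of 209 (5.74%, against 2.4% of all genes) were more negative at 30 mM. Estimates of the difference were below 0 for 17 of 18 cytosolic heat shock proteins and 21 of 25 other lumenal chaperones and J proteins. The same held for 25 of 31 genes of the translocon list and 5 of 11 genes of ER calcium handling, against 47.6% of all genes. The median log2 fold change at 10 mM was 0.09 for the 24 tested genes of other lumenal chaperones and J proteins and 0.02 for 25 genes of ER-associated degradation. It was 0.04 for 31 genes of the translocon, signal peptidase and oligosaccharyltransferase and -0.02 for 24 other disulfide and proline isomerases. The 18 cytosolic heat shock proteins and the 11 mitochondrial chaperones had 0.07 each, and 11 genes of ER calcium handling had 0.05. It was 0.02 for sensors and factors of the unfolded protein response, 0.01 for PERK and ATF4 targets and -0.02 for vesicle export. The 10 chaperones had 0.23 and all genes -0.0023. Above 0 at 10 mM were 13 of 15 sensors and factors and 19 of 24 other lumenal chaperones and J proteins. Of ER calcium handling it was 10 of 11 genes, of other disulfide and proline isomerases 9 of 24 and of vesicle export 10 of 25. Over all genes it was 49.3%.

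**Figure D5:**
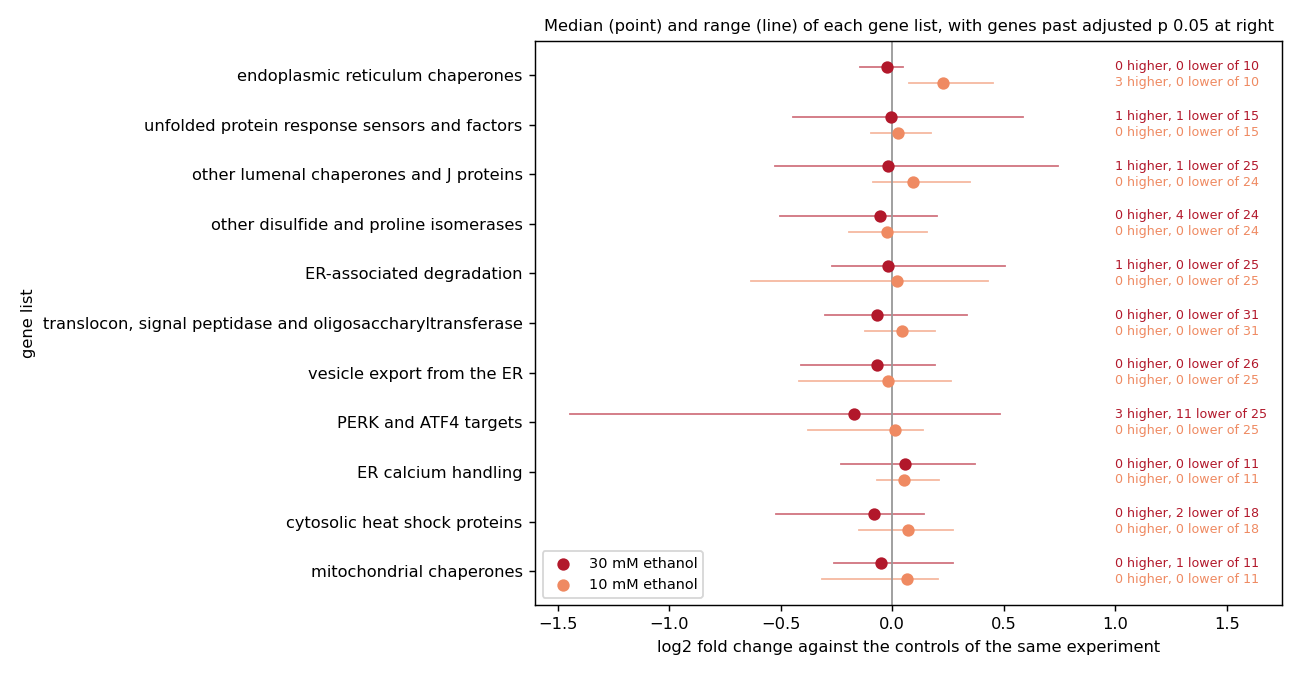
Median (points) and range (lines) of the log2 fold change (x axis) of each gene list (y axis) at 30 mM and 10 mM, with the number of genes past an adjusted p of 0.05 printed at the right. The 10 ER chaperones have 3 genes higher at 10 mM and 0 called at 30 mM, and the list of PERK and ATF4 targets has 3 higher and 11 lower of 25 at 30 mM.

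Sensors and factors of the unfolded protein response gave 0 calls of 15 at 10 mM, against 0.657% of all genes. An unadjusted p under 0.05 was found for 0 of them, against 10.1% of all genes. Xbp1, the factor activated by IRE1, had a log2 fold change of 0.12 at 10 mM (95% interval -0.10 to 0.33) and -0.13 at 30 mM (-0.36 to 0.11). Tag counts do not separate its spliced from its unspliced form. Atf6 had 0.02 and 0.18 at 10 and 30 mM, and Ern1, which encodes IRE1, had 0.10 and 0.59, and neither was called. Eif2ak3, which encodes PERK, had too few counts to be tested at either dose, and the difference between the doses was -1.19 (adjusted p = 0.105). The targets Hyou1, Herpud1, Creld2 and Dnajc3 were called at neither dose, with log2 fold changes at 10 mM of 0.04, -0.06, 0.21 and 0.03. Dnajc3, at -0.19 at 30 mM (adjusted p = 0.143), passed there without 30 mM replicate 2 (0.0321).

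Atf4, the factor translated when PERK is active, fell at 30 mM, where it ran from 284 through 297 to 330 CPM in the controls and from 209 through 220 to 235 CPM with ethanol. All ethanol wells were below all controls (log2 fold change -0.44, SE 0.0628, adjusted p = 1.96e-06), and the change at 30 mM was below that at 10 mM by -0.36 (adjusted p = 0.00984). Ddit3, which encodes the stress factor CHOP, was higher at 30 mM (log2 fold change 0.48, SE 0.144, adjusted p = 0.0244) and had -0.02 at 10 mM (95% interval -0.25 to 0.21). Its call was lost without control replicate 1 (adjusted p = 0.0605), control replicate 5 (0.0654), 30 mM replicate 3 (0.0563) or 30 mM replicate 4 (0.0864), and also with DESeq2 (0.0913) and without the filter on low counts (0.0728). Its locus carries a second identifier of the same symbol with 0 counts, so the split of reads between them is uncertain. Of 25 tested PERK and ATF4 targets, a list that includes both genes, 3 were higher and 11 lower at 30 mM, against 9.67% of all genes called in either direction. At 10 mM 0 of 25 were called, against 0.657% of all genes. For the difference 7 of 26 were lower, against 2.4% of all genes. Shmt2 (-0.58 at 30 mM, adjusted p = 2.75e-05) and Eif4ebp1 (-0.54, adjusted p = 3.41e-05) fell, and Slc7a5 had a difference between the doses of -0.65 (adjusted p = 0.00333).

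Some other folding enzymes of the ER fell at 30 mM, and the contrast with the 10 chaperones was not tested. Called in either direction were 4 of 24 other disulfide and proline isomerases and 2 of 25 other lumenal chaperones and J proteins. Of ER-associated degradation it was 1 of 25 genes, and of all genes 9.67%. Prdx4, an ER peroxiredoxin, had -0.50 (adjusted p = 3.03e-05), Fkbp2, a proline isomerase, had -0.41 (adjusted p = 0.000123), and Rcn1, a calcium-binding protein of the ER lumen, had -0.34 (adjusted p = 0.00398). P4hb, the founding member of the disulfide isomerase family, had -0.23 (adjusted p = 0.0187), and its call was lost without control replicate 4 (0.0582), 30 mM replicate 3 (0.0719), 30 mM replicate 5 (0.0751) or 30 mM replicate 6 (0.0734). With the log2 total count as covariate P4hb had -0.17 and was not called (adjusted p = 0.0681). Fkbp10 had -0.50 (adjusted p = 0.0135, and 0.0745 without control replicate 3). Dnajc1, a J protein of the ER membrane, was higher by 0.29 (adjusted p = 0.0249), and that call was lost without control replicate 2 (0.0750), 30 mM replicate 2 (0.0721) or 30 mM replicate 3 (0.0910), with DESeq2 (0.0959) and without the filter (0.116). Edem2, which marks glycoproteins for degradation, was higher by 0.51 (adjusted p = 0.0200), and its call was lost without control replicate 5 (0.0786) or 30 mM replicate 5 (0.0603) and with DESeq2 (0.0702).

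Of 29 tested chaperones of the cytosol and mitochondria, 3 were called at 30 mM, all lower (10.3%, near the 9.67% of all genes). At 10 mM edgeR called 0 of the 29, against 0.657% of all genes, and DESeq2 and limma voom each called 1. Of the 29, 11 had an unadjusted p under 0.05, against 10.1% of all genes. Estimates at 10 mM were above 0 for 12 of 18 cytosolic and 8 of 11 mitochondrial chaperones, against 49.3% of all genes. At 30 mM Cryab, a small heat shock protein of the cytosol, had -0.34 (adjusted p = 0.000175), and Hspa9, the mitochondrial form of Hsp70, had -0.26 (adjusted p = 0.00655). Hspb1 had -0.52 (adjusted p = 0.0285), which was lost without control replicate 1 (0.0959), control replicate 6 (0.0634) or 30 mM replicate 1 (0.0750), 3 (0.0572) or 4 (0.0691). Lists of ER calcium handling, of the translocon and of vesicle export had 0 calls at either dose. An unadjusted p under 0.05 was found at 30 mM for 2 of 11, 6 of 31 and 4 of 26 genes, against 23.5% of all genes. At 10 mM it was found for 2 of 11, 1 of 31 and 2 of 25, against 10.1%. With upper quartile normalisation 1 gene of ER calcium handling was called higher at 30 mM.

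Other genes with the ERSE letters were read in the same way. The genes outside the 10 with an ERSE match numbered 8 among those tested at 10 mM, of which 0 were called (median log2 fold change 0.10), and 8 at 30 mM, of which 1, Hnrnpa3, was lower (median -0.05). Of all genes, 0.657% were called at 10 mM and 9.67% at 30 mM. Among the genes of the 10 related lists the match was present in Creld2, Dnajc3, Derl3 and Syvn1. Of the 3 chaperones higher at 10 mM, Hspa5 and Hsp90b1 carried it and Sdf2l1 did not, and of the 5 with the match, Calr, Canx and Pdia6 were not called at 10 mM.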

How the data were processed

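The deposited values are raw read counts for every gene in all 24 wells, unscaled by the authors. Per the submitters' processing notes, the tools included cutadapt 1.18 and STAR, and the build was GRCm39. The counter, the annotation, the use of strand and any removal of duplicates are not given in the sources used here, so overlapping genes are uncertain. Symbols were matched by identifier (52083 of 55359, 94.1%). Promoter windows came from RefSeq on GRCm38.p6, and no other coordinates are given.

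Wells of a dose were fitted together with the controls of the same experiment in edgeR 4.0.16 (R 4.3.3), with TMM normalisation, the filterByExpr minimum of 10 counts, the quasi-likelihood test and Benjamini-Hochberg adjustment over all genes tested, at a threshold of 0.05. The interaction used all 24 wells. CPM used TMM factors from all 24 wells, and log2 CPM had a prior count of 2. Intervals are 95%. Alternatives were DESeq2 1.42.0, limma 3.58.1 voom, other scalings and thresholds, a joint fit, no filter, the log2 total count as covariate, a replicate block, an exact permutation test and leaving out each well. The steps were tested on simulated data with changes larger than those of the 10 genes with ethanol, so that test does not cover changes of their size.

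The 10 genes and all lists were chosen with earlier results of these data known. Named genes were the 10, at most 3 called genes per list and comparison with the smallest p, 11 fixed genes and the 10 nearest in level. Total counts ran from 1184609 to 1817028 per well. No pair of wells of a group agreed within sampling noise (60 pairs, chi-square per degree of freedom 1.08 to 3.14).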

Additional observations from a re-analysis of the deposited data

Results flagged for a closer look

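Canx, the membrane-bound lectin chaperone, had 707 CPM in replicate 1 at 30 mM, far above the other 5 wells of its group (579 to 626 CPM). That well also had the largest total count of its group. Dnajb9 had 67.9 CPM in control replicate 5 of experiment 1, against 48.2 to 53.0 CPM in the other 5 controls. The summed level of the 10 chaperones was 4201 CPM in replicate 6 at 10 mM, against 3777 to 3911 CPM in the other 5 wells. Of 48 groups of values tested in this way 3 had such a well, where chance alone gives about 2.4.

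The change at 30 mM was below the change at 10 mM, by the interaction test in edgeR with adjusted p under 0.05, for Hspa5 (-0.37 on the log2 scale), Pdia6 (-0.37) and Manf (-0.43) among the 10 chaperones. Of the other genes named, the same was found for Atf4 (-0.36), P4hb (-0.32), Fkbp2 (-0.58), Prdx4 (-0.49), Shmt2 (-0.70), Slc7a5 (-0.65), Eif4ebp1 (-0.63), Cryab (-0.33) and Grpel1 (-0.39). The calls of P4hb and Grpel1 were lost in some fits that left out 1 well: for P4hb without control replicate 4 of experiment 1 (adjusted p = 0.0502) or 30 mM replicate 3 (0.0602) or 6 (0.0599), and for Grpel1 in 10 of 24 fits, with an adjusted p of at most 0.0915. With the log2 total count as covariate the calls of P4hb (adjusted p = 0.0881), Grpel1 (0.0664) and Cryab (0.0714) were lost as well as that of Hspa5 (0.0553). With upper quartile normalisation those of P4hb (0.0668) and Grpel1 (0.0995) were lost, and without the filter on low counts that of Grpel1 (0.0501). Dose and experiment cannot be told apart in any of these differences.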

How the results depend on the processing

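Leaving out each well in turn gave 953 to 1563 called genes at 30 mM (1280 in all wells), 37 to 95 at 10 mM (89; the lowest without control replicate 5 of experiment 2), 329 to 759 for the difference (481) and 5367 to 6250 between the controls (5880). The lowest count for the difference came without replicate 6 at 30 mM and the highest without replicate 1 at 30 mM. Of the 10 chaperones, 0 to 1, 2 to 4, 3 to 5 and 5 to 6 were called. At a threshold of 0.01, called genes numbered 641 at 30 mM, 28 at 10 mM and 173 for the difference, with 1 chaperone called for the difference. At 0.1 they numbered 150 at 10 mM and 854 for the difference, with 6 and 5 chaperones. At 10 mM, DESeq2 called 47 genes and the joint fit 21. The total count as covariate left 307 for the difference. Upper quartile normalisation changed the split of higher and lower calls from 400 and 880 to 551 and 697 at 30 mM and from 129 and 352 to 222 and 203 for the difference.

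Estimates near 0 changed sign, none of them called before or after. With the total count as covariate, the log2 fold change at 30 mM was 0.074 for Hspa5, 0.033 for Hsp90b1, 0.037 for Calr and 0.028 for Pdia3. The difference between the doses was 0.0028 for Canx, and between the controls Hsp90b1 had -0.0080 and Pdia3 had -0.085. With upper quartile normalisation the values at 30 mM were 0.0089 for Hspa5, 0.016 for Hsp90b1, 0.033 for Calr and 0.016 for Pdia4, the difference was 0.035 for Canx, and between the controls Hsp90b1 had -0.0039 and Pdia3 had -0.018. Calr at 30 mM was 0.0024 with RLE normalisation and 0.0020 with limma voom. Between the controls Calr was 0.026 with DESeq2, 0.013 in the joint fit, 0.046 without the filter and 0.020 as the difference of log2 CPM, where Pdia4 was 0.0085, 0.029 (without the filter) and 0.0015. Ddit3 at 10 mM was 0.0029 without the filter. Leaving out each well gave, at 30 mM, -0.068 to 0.012 for Hspa5, -0.050 to 0.0085 for Hsp90b1, -0.039 to 0.027 for Calr, -0.050 to 0.014 for Pdia4, -0.023 to 0.084 for Sdf2l1 and -0.17 to 0.017 for Hyou1. At 10 mM it gave -0.079 to 0.045 for Ddit3, -0.028 to 0.15 for Hyou1, -0.012 to 0.24 for Ern1 and -0.037 to 0.073 for Atf6. Between the controls it gave -0.030 to 0.037 for Calr, -0.0098 to 0.095 for Pdia3 and -0.039 to 0.010 for Pdia4. The causes of these changes were not tested.

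The replicate numbers did not pair the wells. Deviations of same-numbered wells correlated at -0.14 to 0.23 over 12 pairs, with 1 pair above 0.1, and in 1 of the 12 pairs the wells correlated best with their own number. With the replicate block 1208, 68 and 461 genes were called at 30 mM, at 10 mM and for the difference, and 0, 3 and 3 chaperones. The block was not run between the controls, where each number of an experiment holds 1 well. Depth limits Dnajb9 and Sdf2l1 most, with as few as 31 and 50 counts in a well.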
